A study of Mus musculus with 18 samples.

Results

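The genes described here are the matrix metalloproteases (Mmp), the secreted ADAMTS proteases, the ADAMTS-like proteins (Adamtsl) and the tissue inhibitors of metalloproteases (Timp) of TC1 cells, which the labels call a mouse fibrosarcoma line. Members were taken by symbol, and the families were chosen with earlier results of these data known. Of 51 mouse symbols of this form in the reference symbol table, 43 were listed in at least 1 table of the series, out of 29538 genes listed in all. They comprised 20 Mmp, 14 Adamts, 5 Adamtsl and 4 Timp genes. The groups were unedited wild-type (WT) cells, cells carrying a guide RNA against Nat10 (sgNAT10) and cells carrying a guide RNA against Myc (sgMyc). Nat10 encodes the RNA acetyltransferase that makes N4-acetylcytidine, and Myc encodes a transcription factor of growth genes. The first mRNA set had 2 WT and 2 sgNAT10 libraries, and ribosome footprints (Ribo-seq, fragments of mRNA protected by ribosomes) were measured in 2 WT and 2 sgNAT10 libraries. A separate mRNA set had 3 WT and 3 sgMyc libraries. Acetylated RNA was precipitated from 1 WT and 1 sgNAT10 sample (acRIP), each with its input. The labels give no treatment, and they do not say whether an edited line is 1 clone or a pool, or whether libraries came from separate cultures. P-values therefore measure only the spread between these libraries, which may be technical. Each edit was compared with the WT libraries of its own set.

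Matrix metalloproteases are zinc enzymes that cut collagens, laminins, fibronectin and other proteins around cells. Most are secreted as inactive precursors in which a cysteine of the propeptide blocks the zinc, and they become active when that propeptide is removed. TIMP proteins block the active enzymes by binding their catalytic site. TIMP2 also has a part in activation, since a complex of TIMP2 with the membrane-bound MMP14 presents the precursor of MMP2 for cleavage. ADAMTS proteases trim procollagens or cut proteoglycans such as versican and aggrecan, and ADAMTS-like proteins share their matrix-binding domains but have no protease domain. In fibroblasts and fibrosarcomas these genes are known for matrix turnover and for growth factor and AP-1 control of the stromelysins.

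The inducible Mmp genes lie side by side on chromosome 9, and the promoters of this cluster are shown because it holds Mmp3 and Mmp10, which rose most under sgMyc among the members tested, and Mmp13, which was too low for the test. RefSeq promoters on GRCm38.p6, running from 250 bases before to 50 bases after the gene start, were found for 31 of the 43 members, as 33 promoters. The AP-1 sequence TGACTCA or its reverse complement TGAGTCA stood in 6 of these 33 promoters (18.2%), against 5.202% of 32851 mouse promoters of the same length. Both forms are the same site read on either strand. All 6 belonged to the chromosome 9 cluster: Mmp10, Mmp12, Mmp13, Mmp1a, Mmp1b and Mmp3. Windows of 30 bases are given 5′ to 3′ on the strand of the gene, with the AP-1 sequence in capitals, for Mmp3, Mmp10 and Mmp13 and for 2 neighbours that had at most 4 counts in any library of the sgMyc set.
Mmp3: ggaagcaattaTGAGTCAgttttcgggtga
Mmp10: tagcacccatgTGAGTCAtgcttagtgacc
Mmp13: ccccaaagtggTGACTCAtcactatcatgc
Mmp1a: gttgtcaaccaTGAGTCAcatagcctctgg
Mmp1b: gttacaaagccTGAGTCAtatagcctctgg
The Mmp3 window is chr9:7445765-7445794 on the plus strand, with the site 46 bases before the gene start. Those of Mmp10 (chr9:7502268-7502297, 63 bases before), Mmp13 (chr9:7272468-7272497, 35 bases before) and Mmp1a (chr9:7464057-7464086, 73 bases before) are also on the plus strand. The Mmp1b window (chr9:7388101-7388130, 93 bases before) is on the minus strand. The sites are thus present both in genes that changed and in genes that stayed near 0. The E-box CACGTG, the best known Myc-binding sequence, stood in 1 member promoter (3.03%, against 7.15% of all), that of Adamts17, and the ETS sequence AGGAAG or its reverse complement CTTCCT in 13 (39.4%, against 35.4%). A match is only a description of the letters in this window.

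Total recovered reads, which are whole reads worked back from the deposited values, ran from 11332038 to 14864922 in the first mRNA set and from 1514086 to 3148083 in Ribo-seq. Total counts ran from 51875052 to 65768024 in the sgMyc set. The third sgMyc library stood apart: 61.6% and 61.7% of genes differed between it and the other sgMyc libraries beyond a chi-square limit that sampling alone passes in 0.1% of genes, against 13% between sgMyc libraries 1 and 2 and 15.5% to 20.2% between WT libraries. Results of the sgMyc set are therefore given with and without it, and library by library. In the first mRNA set only 0.684% of genes passed that limit between the WT libraries and 1.33% between the sgNAT10 libraries. Replicates of that set thus differed little beyond sampling, and its p-values rest on that small spread. Nat10 mRNA was 5.30 and 5.36 FPKM (fragments per kilobase of gene, scaled to library size) in WT and 3.59 and 3.95 in sgNAT10, a log2 change of -0.41 (limma, SE 0.06, adjusted p = 0.00266). Myc mRNA was 61.6 to 70.8 FPKM in WT and 21.1, 20.9 and 34.1 in sgMyc libraries 1, 2 and 3 (edgeR, log2 change -1.37, SE 0.22, adjusted p = 0.011). Myc also fell in sgNAT10, from 115 and 117 to 39.98 and 40.92 FPKM (limma, log2 change -1.49, SE 0.03, adjusted p = 9.41e-06). Of the 8 fibroblast markers checked, Vim was at 251 FPKM in the WT cells of the first set and 917 in those of the sgMyc set, while Col1a1 stayed under 0.5 FPKM. In the first mRNA set 4 of 6 tested fibroblast markers rose and 2 fell, and in the sgMyc set 3 of 8 rose and 1 fell (6 and 1 without the third sgMyc library). These counts, and those of the macrophage and neutrophil markers below, stand against 63.3% of all genes called in sgNAT10 mRNA. In sgMyc the share was 16.0%, and 53.6% without the third library. The summed level of the 5 epithelial markers was at most 0.242 FPKM in the first mRNA set and 0.862 in the sgMyc set, and that of the 3 T cell markers at most 0.033. Of the 11 macrophage and neutrophil markers only Cd14, Cd68 and Csf1r were tested in the first set, with a summed level of 5.494 to 5.996 FPKM in WT and 12.2 to 13.7 in sgNAT10, and Cd14 alone rose. In the sgMyc set the same list summed to 11.3 to 12.3 FPKM in WT and 16.0 to 29.5 in sgMyc, and Cd14 rose alone of 3 tested (2 rose without the third library). The part of these shifts in the results below was not tested.

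In sgNAT10 cells the mRNA of 10 of the 14 members tested rose, that of 3 fell and that of 1 did not pass the test (limma on log2(FPKM + 1), Benjamini-Hochberg adjusted p under 0.05). The gelatinase Mmp2 and the procollagen protease Adamts14 nearly vanished, while the inhibitors Timp1 and Timp2 reached 98.8 to 120 FPKM. Over all 11735 genes tested 63.3% were called, so a call by itself sets no member apart. The median log2 change was 0.48 over the 14 members and 0.01 over all genes. Fold changes are on the log2(FPKM + 1) scale and understate the change of low genes. Every member tested had WT and sgNAT10 values that did not overlap (11 higher and 3 lower), as did 82.3% of all genes tested. Of the 14, 12 had a mean of at least 1 FPKM in both genotypes, the others being Mmp2 and Adamts14. With no filter on low values 11 of 23 members were higher and 5 lower, and edgeR on the recovered reads called 11 of 21 higher and 6 lower. The 63.3% belongs to the main test, and the share of all genes called under these other settings is not given here.

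**Figure D1:**
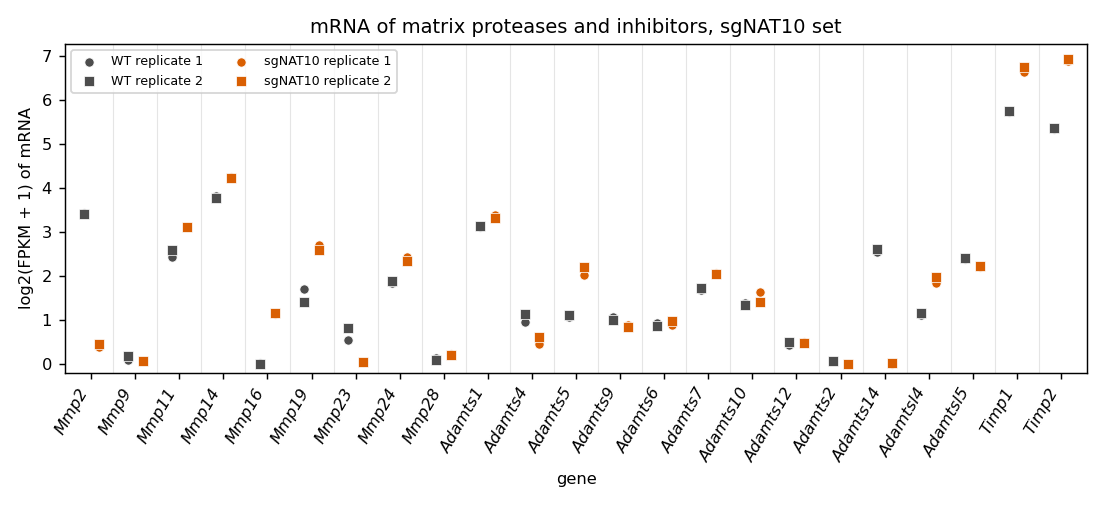
mRNA level as log2(FPKM + 1) of the 23 members listed in the sgNAT10 set, 1 point per library, with WT in grey on the left and sgNAT10 in orange on the right of each gene (circles replicate 1, squares replicate 2). Mmp2 and Adamts14 drop to near 0 in both sgNAT10 libraries, and Timp1 and Timp2 stand highest.

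Among the secreted metalloproteases, Mmp2 encodes gelatinase A, which cuts denatured collagen and collagen IV of basement membranes (chr8:92827290-92853421 on GRCm38.p6). Its mRNA was 9.79 and 9.51 FPKM in WT and 0.31 and 0.368 in sgNAT10. Both sgNAT10 libraries lay far under both WT libraries, with 18 and 20 recovered reads against 723 and 589. The log2 change was -2.99 (SE 0.06, adjusted p = 9.47e-06). Mmp11, or stromelysin 3, which is cleaved by furin inside the cell, was 4.35 and 5.04 FPKM in WT and 7.65 and 7.63 in sgNAT10 (log2 change 0.60, SE 0.07, adjusted p = 0.00117). Mmp19, an MMP of basement membrane and matrix proteins, went from 2.26 and 1.63 to 5.519 and 4.9995 FPKM (log2 change 1.09, SE 0.12, adjusted p = 0.000882). Neither pair of values overlapped. The stromelysins Mmp3 and Mmp10 and the collagenases Mmp13, Mmp1a, Mmp1b and Mmp8 were not listed in this table. The other gelatinase, Mmp9, was under the limit of the test, at 0.0645 and 0.138 FPKM in the WT libraries against 0.0492 and 0.0525 after the edit.

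The membrane-bound metalloproteases shifted from low levels or stayed moderate. Mmp14 (MT1-MMP), the collagenase of the cell surface and activator of the MMP2 precursor, was 13.1 and 12.6 FPKM in WT and 17.9 and 17.5 in sgNAT10 (log2 change 0.44, SE 0.04, adjusted p = 0.000484). It was the most abundant Mmp gene of this set. Mmp16 (MT3-MMP) was absent from the main test because its mean was below 1 FPKM. It was 0.0211 and 0.00628 FPKM in WT, from 4 reads and 1 read, and 1.18 and 1.22 in sgNAT10, from 176 and 171 reads. With no filter on low values its log2 change was 1.12 (adjusted p = 0.00023). Mmp23, a type II membrane protein, went the other way, from 0.468 and 0.768 FPKM to 0.0248 and 0.0265, that is from 57 reads to 2 (ratio 24.5, exact 95% counting interval 6.47 to 207). Its log2 change with no filter was -0.65 (adjusted p = 0.0064). Mmp24 (MT5-MMP) was 2.602 and 2.663 FPKM in WT and 4.36 and 4.04 in sgNAT10 (log2 change 0.52, SE 0.06, adjusted p = 0.00125). Mmp24 is uncertain, since it overlaps the antisense gene Mmp24os1 and the use of strand in counting is not given in the sources used here. The same limit holds for any member that overlaps a gene on the opposite strand.

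Of the ADAMTS genes, Adamts14 encodes an enzyme that removes the N-propeptide of procollagen (chr10:61197112-61273419). It was 4.82 and 5.07 FPKM in WT, from 549 and 484 reads, and 0 and 0.0119 in sgNAT10, where a single read was found. The log2 change was -2.56 (SE 0.07, adjusted p = 2.01e-05), and the read ratio of WT over sgNAT10 was 887 with a counting interval of 159 to 35071. Its close relative Adamts2 was scarce in this set, with 19 reads in WT and 1 in sgNAT10 (ratio 16.3, interval 2.59 to 678), and was not tested. Adamts5, an aggrecanase and versicanase, was 1.09 and 1.16 FPKM in WT and 3.03 and 3.58 in sgNAT10 (log2 change 1.01, SE 0.09, adjusted p = 0.000423). Its neighbour on chromosome 16, Adamts1, another versican-cutting enzyme, was 7.66 and 7.81 FPKM in WT and 9.48 and 8.91 in sgNAT10 (log2 change 0.22, SE 0.05, adjusted p = 0.0109). Without WT replicate 1 the call of Adamts1 was lost (adjusted p = 0.056). Adamts7, which cuts COMP and thrombospondin 1, was 2.19 and 2.30 FPKM in WT and 3.17 and 3.09 in sgNAT10 (log2 change 0.35, SE 0.06, adjusted p = 0.00516). Adamts10, a binder of fibrillin, did not pass the test at 1.62 and 1.52 FPKM in WT and 2.09 and 1.64 in sgNAT10 (adjusted p = 0.243). Adamts4, Adamts6, Adamts9 and Adamts12 were below the limit of the test. Adamts4, an aggrecanase, was 0.93 and 1.19995 FPKM in WT and 0.374 and 0.528 in sgNAT10 (with no filter, log2 change -0.51, adjusted p = 0.0133), while its footprints were 2.31 and 0.88 FPKM in WT and 3.03 and 3.25 in sgNAT10 (adjusted p = 0.443). Adamts9 was 1.095 and 1.01 FPKM in WT and 0.845 and 0.799 in sgNAT10, and edgeR on the recovered reads called it lower (log2 change -0.37, adjusted p = 0.000946). Adamts6 stayed between 0.831 and 0.962 FPKM and Adamts12 between 0.347 and 0.414 in all 4 libraries.

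The ADAMTS-like genes differed in direction. Adamtsl4, a fibrillin-binding protein of the fibres that hold the eye lens, was 1.16 and 1.23 FPKM in WT and 2.599 and 2.908 in sgNAT10 (log2 change 0.77, SE 0.08, adjusted p = 0.000701). Adamtsl5 was 4.23 and 4.31 FPKM in WT and 3.59 and 3.66 in sgNAT10 (log2 change -0.19, SE 0.05, adjusted p = 0.0243). The call of Adamtsl5 was lost when any 1 of the 4 libraries was left out, with adjusted p from 0.0578 to 0.119.

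The inhibitors stood highest of all members. Timp2 (chr11:118301061-118355411), the partner of MMP14, was 39.6 and 39.7 FPKM in WT and 117 and 120 in sgNAT10 (log2 change 1.56, SE 0.03, adjusted p = 8.72e-06). Timp1 (chrX:20870166-20874737), which binds the precursor of MMP9, was 52.2 and 52.6 FPKM in WT and 98.8 and 106 in sgNAT10 (log2 change 0.95, SE 0.04, adjusted p = 5.36e-05). In neither gene did the groups overlap. The summed FPKM of the Timp genes was 91.8 and 92.3 in WT and 216 and 226 in sgNAT10, while that of all Mmp and Adamts genes was 53.5 and 53.8 in WT and 57.4 and 55.9 in sgNAT10. Per FPKM of protease mRNA there were thus 1.72 and 1.72 FPKM of inhibitor mRNA in WT and 3.76 and 4.04 in sgNAT10. These sums are descriptions, were not tested and say nothing of protein.

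In ribosome footprints, the members whose mRNA had nearly vanished fell as well. Of 14 members tested, 2 fell (Mmp2 and Adamts14), none rose and 12 did not pass the limma test, against 3.09% of all 9707 genes called. At an unadjusted p under 0.05, 3 members were higher and 2 lower, and edgeR on the recovered reads called 1 higher (Timp2) and 2 lower. Both calls were lost when any 1 of the 4 Ribo-seq libraries was left out (adjusted p from 0.102 to 0.179 for Mmp2 and from 0.139 to 0.304 for Adamts14), and this assay was shallower and its replicates differed more, with 34.5% of genes past the chi-square limit between WT libraries and 21.6% between sgNAT10 libraries. The median log2 change was 0.58 over the 14 members and 0.00 over all genes. In 10 members both sgNAT10 libraries lay above both WT libraries, in 2 below, and in 2 the groups overlapped, against groups that did not overlap in 51.1% of all genes tested. Both genotypes had a mean of at least 1 FPKM in 10 of the 14. For the unadjusted and edgeR counts the share of all genes is not given here.

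Mmp2 footprints were 32.1 and 39.5 FPKM in WT, from 341 and 409 reads, and 0.0831 and 0.516 in sgNAT10, from 1 and 3 reads. The log2 change was -4.84 (SE 0.35, adjusted p = 0.00345). Adamts14 had 53 and 33 reads in WT (9.70 and 6.21 FPKM) and 0 reads in both sgNAT10 libraries. Against a floor of 3 reads over the sgNAT10 group, it was at least 24.6-fold lower there (log2(FPKM + 1) change -3.13, SE 0.44, adjusted p = 0.0248). Footprints of these proteases were thus at or close to the limit of counting in sgNAT10. Timp1 and Timp2 gave 221 and 175 FPKM and 34.6 and 46.8 FPKM in WT, against 331 and 309 FPKM and 90.4 and 79.4 FPKM in sgNAT10. The groups did not overlap, but neither gene passed the test (log2 changes 0.70, SE 0.15, adjusted p = 0.0808, and 1.06, SE 0.21, adjusted p = 0.0614). Mmp19 was 2.24 and 0.461 FPKM in WT and 7.45 and 6.07 in sgNAT10 (log2 difference 1.83, SE 0.51, adjusted p = 0.126). Mmp14 gave 18.8 and 19.7 FPKM in WT and 27.5 and 23.8 in sgNAT10 (adjusted p = 0.372), and Adamts1 17.0 and 16.2 against 22.9 and 23.7 (adjusted p = 0.293). Mmp16, which was below the limit of the test, had 0 reads in WT and 29 and 11 in sgNAT10, at least 15.6-fold higher. Its footprints and its mRNA were both found in sgNAT10 and not, or hardly, in WT.

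Translational efficiency, the change of footprints beyond that of mRNA, was tested in 12 members. None passed the limma interaction test (0.261% of 9200 genes called), with 0 higher and 2 lower at an unadjusted p under 0.05, and no other tool was run. The share of all genes at the unadjusted limit is not given here. The median difference was 0.02 over the 12 members and -0.02 over all genes, on the log2 scale. The member farthest from 0 was Mmp2, at -1.84 (SE 0.31, adjusted p = 0.103), and next by p was Timp2, at -0.50 (SE 0.20, adjusted p = 0.41). Over the 8 fits that each left out 1 library, the difference ran from -2.09 to -1.60 for Mmp2 and from -0.71 to -0.29 for Timp2. A fit without 1 Ribo-seq library leaves a genotype with a single footprint library. More of its residual spread then comes from the closer mRNA replicates. Calls of Mmp2 and Timp2 gained in such fits therefore say nothing of a change in translation. With a weight per assay 0 of the 12 members were called. The sgNAT10 footprints of Mmp2 rest on 4 reads.

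**Figure D2:**
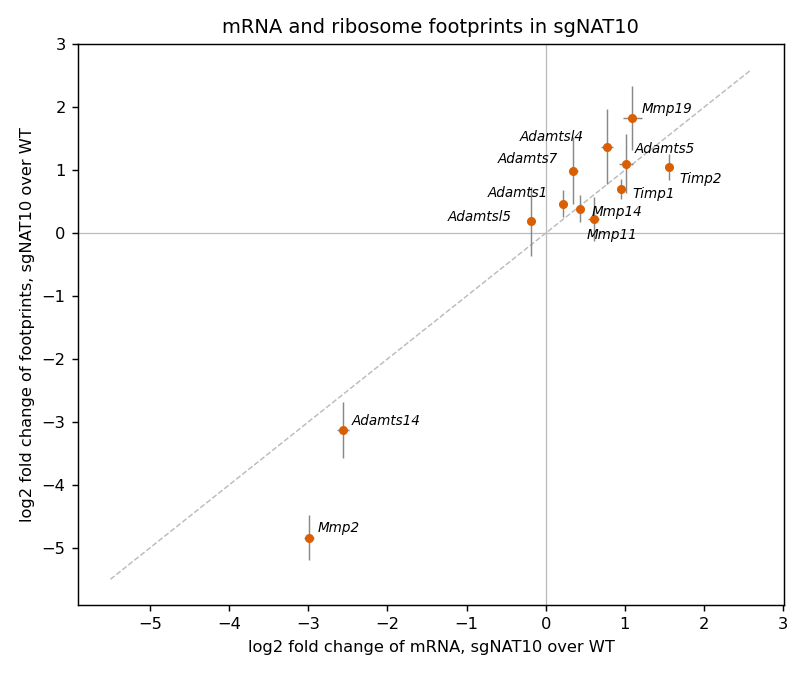
Log2 fold change of mRNA (horizontal) against that of ribosome footprints (vertical), sgNAT10 over WT on the log2(FPKM + 1) scale, for the 12 members tested in both, with standard errors as bars; the dashed line marks equal change. Mmp2 and Adamts14 lie at the lower left, and 9 of the other members lie at the upper right.

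No member held a peak among the 1358 deposited acRIP peaks, which fell in 1066 genes. Of genes with at least 10 FPKM in WT mRNA 15.9% held a peak, and 3 members reached that level (Mmp14, Timp1 and Timp2). Of genes with at least 50 FPKM 39.1% held one, and 1 member, Timp1, reached it. The precipitation had 1 library per kind, so there is no replicate check. Among the related genes below, 13 held peaks, among them Fn1, Jun, Thbs2, Cd44 and Cebpb. Peaks on chromosome 18 were left out of this last count.

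In sgMyc cells 5 of 25 members tested rose and 4 fell (edgeR quasi-likelihood test, Benjamini-Hochberg adjusted p under 0.05), against 16.0% of 16794 genes called. Mmp3 and Mmp10, both stromelysins of the chromosome 9 cluster, rose from near 0, with Mmp14, Mmp16 and Adamts12. Adamts14, Adamts2, Mmp23 and Timp1 fell. Without the third sgMyc library 17 of 26 members were higher and 4 lower, against 53.6% of genes called, and all 9 calls were kept. The median log2 change was 0.26 over the 25 members and -0.03 over all genes (0.61 and -0.01 without the third library). All 3 sgMyc libraries lay above all WT libraries in 5 members, below in 5, and overlapped in 15, against groups that did not overlap in 37.9% of all genes tested. Of the 25, 15 had a mean of at least 1 FPKM in both genotypes.

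**Figure D3:**
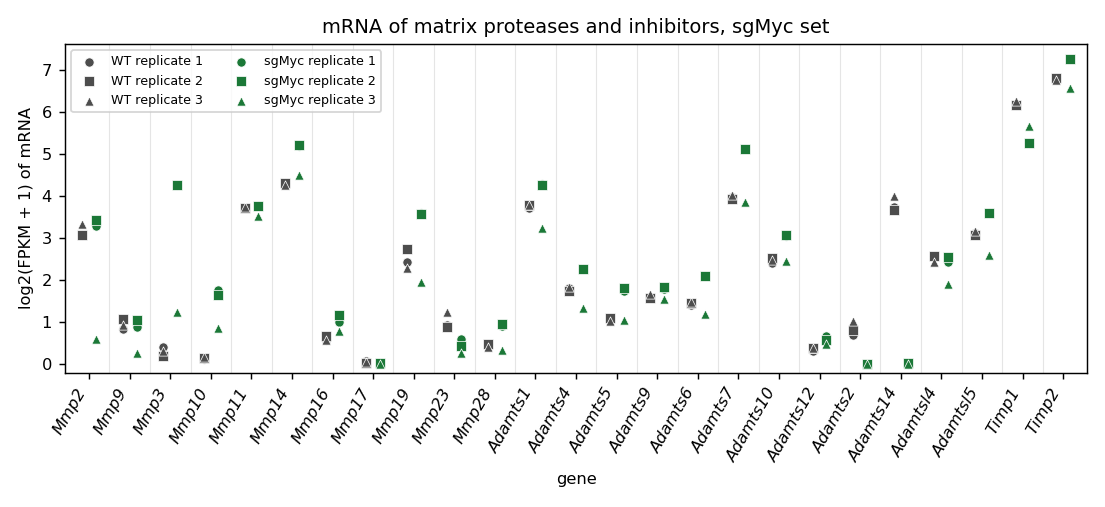
mRNA level as log2(FPKM + 1) of the 25 members tested in the sgMyc set, 1 point per library, with WT in grey on the left and sgMyc in green on the right of each gene (circles replicate 1, squares replicate 2, triangles replicate 3). The third sgMyc library lies below both others in 22 of the 25 members.

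The stromelysins cut proteoglycans, laminin and fibronectin and activate other MMP precursors. Mmp3 was 0.335, 0.141 and 0.246 FPKM in WT and 18.2, 18.4 and 1.36 in sgMyc libraries 1, 2 and 3. All edited libraries were above all WT libraries, but the third by far the least (log2 change 5.65, SE 1.05, adjusted p = 0.0176; 6.23, SE 0.20, adjusted p = 2.12e-08 without it). Mmp10 was 0.0893, 0.105 and 0.127 FPKM in WT, from 10 to 14 counts, and 2.43, 2.14 and 0.812 in sgMyc, from 272, 236 and 103 counts (log2 change 3.97, SE 0.48, adjusted p = 0.00454). The collagenase Mmp13 was too low for the test and had 0 counts in all WT libraries and 23, 17 and 10 in sgMyc, at least 15.0-fold higher against a floor of 3 counts over the WT group. It was called when low counts were not filtered (adjusted p = 0.0393) and without the third sgMyc library (adjusted p = 0.00287). Their cluster neighbours Mmp12, Mmp1a, Mmp1b, Mmp8 and Mmp27 stayed under 0.1 FPKM on average in both genotypes.

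**Figure D4:**
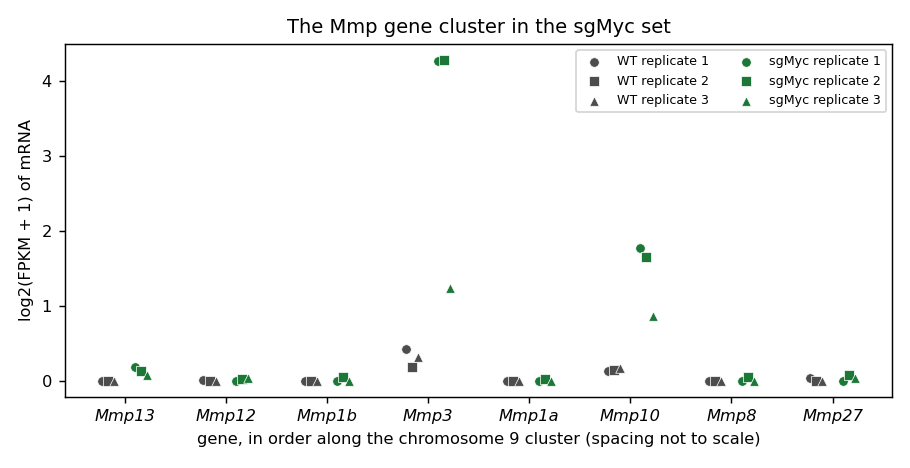
mRNA level as log2(FPKM + 1) of the 8 members of the chromosome 9 Mmp cluster in their order along the chromosome, 1 point per library of the sgMyc set (grey WT, green sgMyc, shape by replicate). Mmp3 and Mmp10 stand above their neighbours in sgMyc libraries 1 and 2, and the third library is lower.

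Mmp2 showed what a mean over the sgMyc libraries hides. It was 7.44, 7.48 and 9.11 FPKM in WT and 8.83, 9.84 and 0.531 in sgMyc, so that libraries 1 and 2 sat in or just above the WT range and the third fell 16.6-fold below the lower of them. The log2 change was -0.34 (SE 0.85, adjusted p = 0.83), and 0.25 (SE 0.10, adjusted p = 0.0597) without the third library. Mmp9 followed the same order, with 0.804, 1.11 and 0.921 FPKM in WT and 0.863, 1.06 and 0.204 in sgMyc (adjusted p = 0.651). Mmp19 was 4.378, 5.677 and 3.899 FPKM in WT, and 11.1 and 11.0 in sgMyc libraries 1 and 2 but 2.90 in the third (adjusted p = 0.296, and 3.40e-05 without the third). Mmp11 hardly moved, at 12.2, 12.3 and 12.4 FPKM in WT and 12.7, 12.6 and 10.6 in sgMyc (log2 difference -0.04, SE 0.09, adjusted p = 0.829).

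Of the membrane-bound enzymes, Mmp14 was 18.8, 18.9 and 18.3 FPKM in WT and 35.8, 36.6 and 21.8 in sgMyc (log2 change 0.74, SE 0.19, adjusted p = 0.0438). Mmp16 was 0.5012, 0.5967 and 0.5001 FPKM in WT and 1.01, 1.25 and 0.722 in sgMyc (log2 change 0.89, SE 0.21, adjusted p = 0.0383). In both, the third library was the lowest edited library but still above WT. Mmp23 was 0.917, 0.855 and 1.35 FPKM in WT and 0.508, 0.358 and 0.215 in sgMyc (log2 change -1.50, SE 0.36, adjusted p = 0.0366). Mmp24 was nearly absent here, with 7 counts in all sgMyc libraries and 0 in WT, while its antisense gene Mmp24os1 averaged 32.9 FPKM in WT and 32.8 in sgMyc. Mmp28, also called epilysin and not membrane-bound, was 0.3996, 0.4031 and 0.3336 FPKM in WT and 0.898, 0.941 and 0.268 in sgMyc (adjusted p = 0.255, and 0.000265 without the third). Mmp17 was tested at a mean of 0.0449 FPKM in WT and 0.0131 in sgMyc (adjusted p = 0.242).

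The procollagen N-proteinase genes Adamts14 and Adamts2 fell to a few counts or 0 in all 3 sgMyc libraries. Adamts14 had 3959, 3485 and 4807 counts in WT (12.4, 11.7 and 15.0 FPKM) and 4, 6 and 5 in sgMyc (0.0118, 0.0154 and 0.0127 FPKM), a log2 change of -9.80 (SE 0.21, adjusted p = 3.20e-05). Adamts2 had 361, 406 and 599 counts in WT (0.626, 0.759 and 1.04 FPKM) and 0 in each sgMyc library, at least 506-fold lower against a floor of 3 counts over the sgMyc group (adjusted p = 0.00163). In these genes the third library was as low as the other edited libraries. Adamts12 was 0.252, 0.300 and 0.310 FPKM in WT and 0.593, 0.498 and 0.407 in sgMyc (log2 change 0.79, SE 0.19, adjusted p = 0.0371).

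The other ADAMTS genes that were tested were higher in sgMyc libraries 1 and 2 and at or below the WT level in the third. Adamts7 was 14.7, 14.3 and 15.2 FPKM in WT and 34.0, 34.2 and 13.6 in sgMyc (log2 difference 0.88, SE 0.32, adjusted p = 0.124; 1.24, SE 0.04, adjusted p = 1.33e-08 without the third library). Adamts1 was 12.3, 12.8 and 12.9 FPKM in WT and 18.5, 18.2 and 8.49 in sgMyc (adjusted p = 0.604, and 2.40e-06 without the third). Adamts5 was 1.03, 1.15 and 1.05 FPKM in WT and 2.37, 2.54 and 1.08 in sgMyc (adjusted p = 0.101, and 1.72e-06 without the third). Adamts4, Adamts6, Adamts9, Adamts10 and Adamtsl5 had the same order of libraries, did not pass the test with all libraries (adjusted p from 0.132 to 0.634) and were higher without the third (adjusted p from 4.67e-06 to 0.00356). Adamtsl4 was 5.02, 5.01 and 4.43 FPKM in WT and 4.42, 4.87 and 2.75 in sgMyc and passed neither test.

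The inhibitors parted under sgMyc. Timp1 was 71.0, 71.2 and 76.8 FPKM in WT and 37.7, 37.4 and 49.8 in sgMyc, all edited libraries below all WT libraries (log2 change -0.81, SE 0.14, adjusted p = 0.0145). Timp2 was 112, 112 and 108 FPKM in WT and 152, 153 and 94.0 in sgMyc (log2 difference 0.26, SE 0.18, adjusted p = 0.389; 0.49, SE 0.03, adjusted p = 9.25e-07 without the third). The summed FPKM of all Mmp and Adamts genes was 97.8 to 104 in WT and 165, 167 and 72.4 in sgMyc libraries 1, 2 and 3. Per FPKM of protease mRNA there were 1.78 to 1.87 FPKM of inhibitor mRNA in WT and 1.15, 1.14 and 1.99 in sgMyc, a description that was not tested. Timp3 and Timp4 were under 0.1 FPKM on average in both genotypes, as were 18 of the 43 members in every table that listed them.

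Taken one by one, sgMyc library 1 lay above the WT range in 17 of the 25 members, within it in 2 and below it in 6, and library 2 above in 18, within in 2 and below in 5. The third library lay above in 5, within in 2 and below in 18. The most common order, in 10 members, was above WT in libraries 1 and 2 and below WT in the third. In 22 of 25 members the third library was below both other edited libraries, as it was in 46.8% of all genes tested; the exceptions were Timp1, Adamts14 and Adamts2. Library 3 also kept more Myc mRNA than the others, at 51.8% of the WT mean against 32.1% and 31.8%. Nat10 mRNA stood at 70.4% and 66.2% of the WT mean in libraries 1 and 2 and at 125% in the third. Whether these differences have a part in the members' values was not tested. Adamts14, Adamts2 and Mmp10 were called whichever library was left out. The calls of Mmp3, Mmp14, Mmp16, Mmp23 and Adamts12 were lost when any WT library or sgMyc library 1 or 2 was left out (adjusted p at most 0.167), and that of Timp1 when any WT library was (at most 0.0824).

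**Figure D5:**
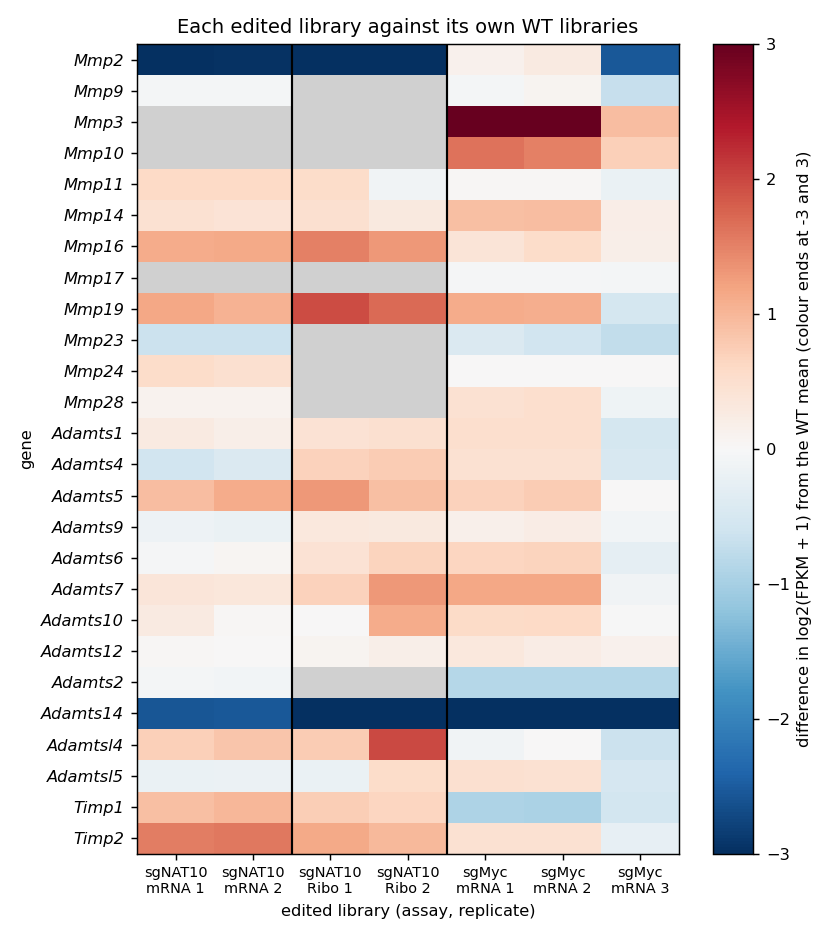
Difference in log2(FPKM + 1) between each edited library and the mean of its own WT libraries for 26 members (rows) in 7 edited libraries (columns), blue lower and red higher, grey where a gene was not listed, with colours ending at -3 and 3. Adamts14 is blue in all 7 libraries, Mmp2 in the sgNAT10 libraries and the third sgMyc library, and Timp1 is red in sgNAT10 and blue in sgMyc.

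The difference between the edits, sgMyc against its WT minus sgNAT10 against its WT, was tested with limma in 13 members. Of these 5 were lower, none higher and 8 not called, against 21.0% of 10265 genes. At an unadjusted p under 0.05 there were also 0 higher and 5 lower, and no other tool was run. The share of all genes at that limit is not given here. The median difference was -0.52 over the 13 members and -0.05 over all genes, on the log2 scale. Timp1 differed by -1.76 (SE 0.17, adjusted p = 0.000334), having risen in sgNAT10 and fallen in sgMyc. Timp2 differed by -1.33 (SE 0.26, adjusted p = 0.00925), Adamtsl4 by -1.01 (SE 0.24, adjusted p = 0.0192) and Mmp11 by -0.64 (SE 0.12, adjusted p = 0.00748). These rose in sgNAT10 and were not called in sgMyc with all libraries, but their WT levels were unequal between the sets. Timp2 was 39.6 and 39.7 FPKM in WT of the first set and 108 to 112 in WT of the sgMyc set. Adamtsl4 was 1.16 and 1.23 against 4.43 to 5.02, and Mmp11 4.35 and 5.04 against 12.2 to 12.4. The part of these WT levels in the differences was not tested. Adamts14 differed by -1.22 (SE 0.13, adjusted p = 0.000605) although it was near 0 in both edits, its WT level being 4.82 and 5.07 FPKM in one set and 11.7 to 15.0 in the other. Mmp2 differed by 2.28 (SE 1.01, adjusted p = 0.155). Without the third sgMyc library 12 of the 13 members were called, 6 higher and 6 lower, against 59.6% of genes. Mmp2 was then among them, at 3.19 (SE 0.12, adjusted p = 4.17e-08). The call of Adamtsl4 was lost in 6 of 10 fits that left out 1 library (adjusted p at most 0.0823). Each set had its own WT libraries and was normalized separately, so set and edit cannot be told apart in levels.

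Other genes of the pathway were read from lists whose genes were chosen with earlier results of these data known. Among genes of plasminogen and proprotein activation, which remove MMP propeptides, 6 of 7 tested rose in sgNAT10 mRNA. The counts of these lists stand against 63.3% of all genes called in sgNAT10 mRNA, 3.09% in footprints, 16.0% in sgMyc and 53.6% in sgMyc without the third library, and nothing is read from a share near these. Plau, the urokinase activator, rose by 1.75 (SE 0.10) on the log2 scale and its receptor Plaur by 0.87 (SE 0.04). In sgMyc 1 of 10 rose and 3 fell, among them Pcsk6 at -5.64 (SE 0.89) and Anxa2 at -0.71 (SE 0.16); without the third library 2 rose and 6 fell. Among regulators of matrix proteases 4 of 10 rose and 3 fell in sgNAT10. The thrombospondins Thbs1 and Thbs2, which bind MMP2, rose by 3.41 (SE 0.05) and 3.04 (SE 0.06) in mRNA and by 3.33 (SE 0.13) and 3.98 (SE 0.27) in footprints. In sgMyc 2 of 13 rose and 3 fell (7 and 4 without the third library), with Thbs2 at 1.87 (SE 0.41) and Bsg, an inducer of MMPs in neighbouring cells, at -0.95 (SE 0.09).

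The ADAM proteases, membrane sheddases of the same superfamily, showed 1 higher and 2 lower of 6 in sgNAT10 mRNA, with Adam19 at 1.34 (SE 0.09) and Adam8 at -1.17 (SE 0.09). In sgMyc 1 of 8 fell, Adam9 at -0.66 (SE 0.07), and without the third library 4 rose and 2 fell. Of the substrates, 4 of 6 rose in sgNAT10 mRNA and 2 fell. Fibronectin, Fn1, rose by 1.53 (SE 0.04) in mRNA and 1.17 (SE 0.14) in footprints. In sgMyc 1 of 12 rose and 3 fell, with the tenascin gene Tnc at -7.33 (SE 0.66) and fibrillin 1, Fbn1, at -2.34 (SE 0.58), and without the third library 7 rose and 4 fell. Of the transcription factors that act on MMP promoters, 9 of 16 rose in sgNAT10 mRNA and 3 fell, led by Jun at 1.80 (SE 0.04) and Egr1 at 1.52 (SE 0.06). In footprints 2 of 16 rose, Jun at 1.91 (SE 0.19) and Cebpb at 1.15 (SE 0.16). In sgMyc 3 of 18 rose and 1 fell, with Ets2 at 1.24 (SE 0.15) and Fosl1, a partner of Jun in AP-1, at -1.18 (SE 0.25), and without the third library 12 rose and 3 fell. These changes of single factors were not related by any test to the members' values.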

How the data were processed

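Gene levels of 18 samples were read from 4 deposited tables; depth per library stands in the report. The submitters' processing notes name FastQC, Trim Galore, Bowtie2, featureCounts and mm10, without versions or roles. Per the file headers, the authors deposited FPKM, log2 fold changes and p-values in the tables of sgNAT10, and a count beside an FPKM for each gene in that of sgMyc. The acRIP table of the authors gives peaks with a fold enrichment, a log2 fold, and scores as log10 values per the file headers; these were used to count peaks only, and the authors' fold changes and p-values were not used as results. Whole reads were recovered from the deposited FPKM in 99.86% (mRNA) and 99.98% (Ribo-seq) of genes, at a relative tolerance of 1e-09, and served for read numbers and an alternative count test; intervals and floors cover counting error only.

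Members and lists were chosen with earlier results of these data known. The sgNAT10 sets were compared on a log2(FPKM + 1) scale by limma 3.58.1 under R 4.3.3 (eBayes with trend, mean of at least 1 FPKM), translational efficiency as an interaction in limma, sgMyc counts with edgeR 4.0.16 (filterByExpr, TMM factors), and the difference between the edits with limma over both mRNA sets, all adjusted by Benjamini-Hochberg over every gene tested (threshold 0.05). Tests were also run on simulated data with a preset spread, whose outcome is not given here and bears on no result above. Named with values are members called in any comparison, most other members tested, and up to 4 called genes per related list; Mmp13 and the low members of the first set were chosen after their values were seen. Alternatives were other pseudocounts, filters, normalizations, DESeq2 1.42.0, a replicate block and leaving out each library. Positions come from RefSeq (GRCm38.p6). A search for protein motifs was planned but is not reported here. Some genes of the lists are not reported here.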

Additional observations from a re-analysis of the deposited data

How the results depend on the processing

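The number of members called was 13 of 14 for sgNAT10 mRNA and 5 of 5 with a filter at a mean of 5 FPKM, where fewer genes were tested. Except for the fits without sgMyc replicate 3, shares of all genes called under the alternatives are not given here. The counts in this section therefore describe the members only. Leaving out 1 library in turn gave 0 to 0 calls for Ribo-seq (2 with all), 0 to 2 for translational efficiency (0 with all), 3 to 21 for sgMyc (9 with all) and 4 to 12 for the difference between the edits (5 with all). In the sgMyc and difference results the highest number came from leaving out sgMyc replicate 3. The calls gained for translational efficiency came from fits without 1 Ribo-seq library, which leave a genotype with a single footprint library. For sgMyc, limma on log2(FPKM + 1) called 2 of 17 members, and the replicate block called 4 of 25; the cause of these lower numbers was not tested. The difference between the edits had 3 calls of 5 with a filter at a mean of 5 FPKM. Of 16 changes of sign over all members and alternatives, 1 ended in a call: Adamts1 in the difference between the edits went from -0.06 to 0.28 (adjusted p = 0.00246) without sgMyc replicate 3, with a range from -0.24 to 0.28 over the libraries left out. The other 15 never passed the test, among them Mmp2, Mmp9 and Mmp11 in sgMyc and Mmp19 in the difference, each without sgMyc replicate 3 (Mmp11 also under 3 other settings). With the replicate block, sgNAT10 mRNA kept 13 calls, Ribo-seq 2 and translational efficiency 0. The replicate numbers are shared only by name: the deviations of same-numbered libraries from their group means correlated at 0.0079 in sgNAT10 mRNA, 0.0245 in Ribo-seq and -0.0181, -0.0138 and 0.0101 in the sgMyc set. Over all members and alternatives, 139 of 145 values for sgNAT10 mRNA, 131 of 144 for Ribo-seq and 209 of 267 for sgMyc kept their direction and their side of the threshold. In Ribo-seq, depth limits what can be seen of Adamts14, Mmp2 and Mmp16, which had 0 to 4 reads in a genotype.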
